A study of Mus musculus with 12 samples.

Results

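Mitochondrial and peroxisomal fatty acid oxidation was examined as a set of 30 genes in whole tibialis anterior muscle of mice, taken 5 days after glycerol was injected. Glycerol injury destroys fibres, and adipocytes form between the regenerating ones. The members were the rows of the gene count table that carry 30 given gene symbols, out of 54532 genes listed, and all 30 were found and tested. By textbook location 20 act in mitochondria (Crat, counted here, also acts in peroxisomes), 5 in peroxisomes, and 5 in both or in neither (Eci2, Acot1, Acsl3, Acsl4 and Acsl5). The 6 control libraries are labelled wild type. The 6 knockout libraries carry the genotype label FAP no ppary: Pparg, whose nuclear receptor directs the formation of adipocytes, was deleted in fibro-adipogenic progenitors (FAPs), mesenchymal cells from which fat cells in muscle arise. The labels give 129svlmJ for all 12 samples. The Cre driver, the age, and whether each library came from a separate animal are not stated in the labels, so the p-values reflect sample-to-sample spread alone, which may be technical.

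Beta oxidation shortens fatty acids in cycles of dehydrogenation, hydration, a further dehydrogenation and thiolysis. Mitochondria take up long-chain acyl groups through the carnitine shuttle and pass the electrons on to the respiratory chain, while peroxisomes shorten very-long-chain and branched acids with their own enzymes. Muscle fibres oxidise fatty acids for energy, and adipocytes carry both sets of enzymes as well. Genes of both pathways are known targets of the PPAR receptors.

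Of the 30 members 1 fell, Acaa1b, and 0 rose by edgeR's quasi-likelihood test, at a threshold of 0.05 on p-values adjusted over all tested genes by Benjamini-Hochberg. Over all 16393 tested genes 0.799% passed by the same rule, 0.75% lower and 0.0488% higher. At an unadjusted p under 0.05, 7 members were lower, against 5.68% of all tested genes, and 1 was higher, against 3.79% (9.47% in either direction). Log2 fold changes, knockout minus control, were negative for 24 members and positive for 6, while 50.5% of all tested genes were negative. The median was -0.15 over the members and -0.0013 over all tested genes.

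The called member, Acaa1b, has a close copy, Acaa1a, and both encode the peroxisomal thiolase that completes each cycle. Their coding sequences are 1272 bases each in GENCODE M21 and differ at 44 positions (96.5% identical). The stretches shown are coding bases 433 to 552, a window of 120 bases with as many differences as any, 14, which are in capitals. They are shown because, within the coding sequence, reads can be told apart between the copies only by such bases. On GRCm38 the stretch of Acaa1a spans chr9:119344495-119347736 on the plus strand and that of Acaa1b chr9:119150898-119153683 on the minus strand, introns left out.
Acaa1a coding: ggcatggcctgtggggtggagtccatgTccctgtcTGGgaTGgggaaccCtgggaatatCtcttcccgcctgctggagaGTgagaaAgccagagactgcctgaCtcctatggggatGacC
Acaa1b coding: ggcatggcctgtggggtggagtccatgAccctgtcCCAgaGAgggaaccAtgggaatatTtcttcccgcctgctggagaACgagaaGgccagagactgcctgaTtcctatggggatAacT

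The regions before the 2 start sites have little in common. Over the 250 bases upstream of the RefSeq starts (GRCm38.p6), 53.0% of 234 aligned positions were identical. The last 120 bases before each start are shown in lower case, with no motif marked, for Acaa1a (chr9:119341174-119341293, plus strand, inside an intron of a longer GENCODE model) and Acaa1b (chr9:119157094-119157213, minus strand).
Acaa1a upstream: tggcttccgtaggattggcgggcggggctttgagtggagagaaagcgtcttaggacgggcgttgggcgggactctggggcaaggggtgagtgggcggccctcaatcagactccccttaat
Acaa1b upstream: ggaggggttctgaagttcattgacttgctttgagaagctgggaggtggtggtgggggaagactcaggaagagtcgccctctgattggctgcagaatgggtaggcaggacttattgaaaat

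PPAR receptors bind, with RXR, to a direct repeat known as DR1. It was searched as 2 copies of AGGTCA with any 1 base between them, on both strands in windows of 300 bases (250 before to 50 after the start), which RefSeq gave for 25 of the 30 members. None of the 25 held it with at most 1 mismatch, against 0.554% of all 32851 promoters. At so low a share 25 promoters would seldom hold any, so their lack of it does not set the members apart. Sites outside these windows were not searched. With up to 2 mismatches 3 members held it (Echs1, Etfa and Slc25a20), against 3.86% of all promoters. The match of Echs1, one of the members with the lowest p, is in capitals in the stretch chr7:140116477-140116541 (minus strand), which stops where the GENCODE exon begins.
Echs1 upstream: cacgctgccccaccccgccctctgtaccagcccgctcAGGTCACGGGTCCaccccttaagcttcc

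Pparg itself, the check of the labels, ranged from 45.0 to 67.4 CPM (counts scaled to library size) in controls, with a median of 56.3 CPM, and from 15.6 to 43.1 CPM in knockouts, with a median of 23.2 CPM. All 6 knockouts lay below the controls, so no library contradicted its label (edgeR quasi-likelihood, adjusted p = 0.0299, log2 fold change -1.12 with an SE of 0.21). The call was kept in 4 of 12 fits with 1 library left out, those without control replicate 3 or knockout replicate 1, 2 or 5, and elsewhere the adjusted p reached at most 0.0856 (edgeR quasi-likelihood). Without both libraries numbered 6 it was 0.126. Library totals ran from 15716056 to 29790720 counts and did not differ beyond their spread (exact permutation p = 0.820, two-sided). The muscle marker Ckm had a control mean of 1843 ± 746 CPM and a knockout mean of 2099 ± 736 CPM (SD, n = 6 each). Of 4 liver genes (Alb, Apoa1, Ttr and Fgb), 0 were tested, and their summed level reached at most 0.275 CPM.

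Peroxisomal members were all lower in the knockout on average, though only Acaa1b fell past the test. Their median log2 fold change was -0.36 (5 genes). Of the 5, 4 were lower at an unadjusted p under 0.05 (edgeR quasi-likelihood), against 5.68% of all tested genes. Without Acaa1b the median of the other 4 was -0.27.

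Acaa1b (ENSMUSG00000010651, chromosome 9, 119148023 to 119157093, minus strand, GRCm38) ranged from 1.73 to 4.14 CPM in controls (median 3.00) and from 0.382 to 1.55 CPM in knockouts (median 0.974). The groups did not overlap, as for 1.43% of all tested genes, and knockout replicates 5 and 6 were lowest. The knockout mean was 33.4% of the control mean (2.91 ± 0.917 against 0.971 ± 0.430 CPM, SD, n = 6 each; edgeR quasi-likelihood, adjusted p = 0.0326, log2 fold change -1.56 with an SE of 0.31). On the log2(FPKM + 1) scale, which understates changes of low genes, its fold change was -0.71 (limma, adjusted p = 0.0323). These values rest on 34 to 90 reads per control and 7 to 36 per knockout library. Of the 50-base words of its transcript 35.5% also occur in Acaa1a, and 11.4% of its exon bases lie opposite Dlec1, so some of its reads could not be placed by sequence or, without strand, by gene. Dlec1 stood at 0.764 ± 0.294 and 0.822 ± 0.387 CPM. With each library left out in turn, Acaa1b kept its call in 4 of 12 fits; leaving out any of control replicates 1 to 4 or knockout replicates 3 to 6 ended it (edgeR quasi-likelihood, adjusted p 0.0517 to 0.0885). It was lost also without both libraries numbered 6 (adjusted p = 0.0779).

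Its copy Acaa1a was the more abundant of the pair. Acaa1a ranged from 98.5 to 139 CPM in controls (median 125) and from 96.2 to 121 CPM in knockouts (median 113), and the groups overlapped widely. The log2 fold change was -0.13 (95% interval -0.33 to 0.06, adjusted p = 0.737, edgeR quasi-likelihood). Per length, in the FPKM of the authors' table, Acaa1a stood at 27.4 ± 3.22 in controls and Acaa1b at 1.46 ± 0.459 (SD, n = 6), so the gene that fell was the minor copy.

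The other peroxisomal members had smaller differences. Hsd17b4, the multifunctional enzyme for branched and very-long-chain acids, ranged from 76.1 to 94.0 CPM in controls (median 84.7) and from 70.3 to 82.0 CPM in knockouts (median 74.0). In 4 of 6 knockouts it lay below all controls (edgeR quasi-likelihood, adjusted p = 0.300, log2 fold change -0.18 with an SE of 0.06). Ehhadh, the multifunctional enzyme for straight chains, ranged from 5.20 to 7.94 CPM in controls (median 6.14) and from 3.73 to 5.75 CPM in knockouts (median 4.95), with 4 of 6 knockouts below all controls (adjusted p = 0.380). Pex11a, a membrane protein that promotes division of peroxisomes, ranged from 9.90 to 15.9 CPM in controls (median 14.9) and from 6.80 to 13.3 CPM in knockouts (median 10.97). Only knockout replicates 5 and 6 lay below the lowest control, replicate 6 (edgeR quasi-likelihood, adjusted p = 0.364, log2 fold change -0.45 with an SE of 0.17).

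**Figure D1:**
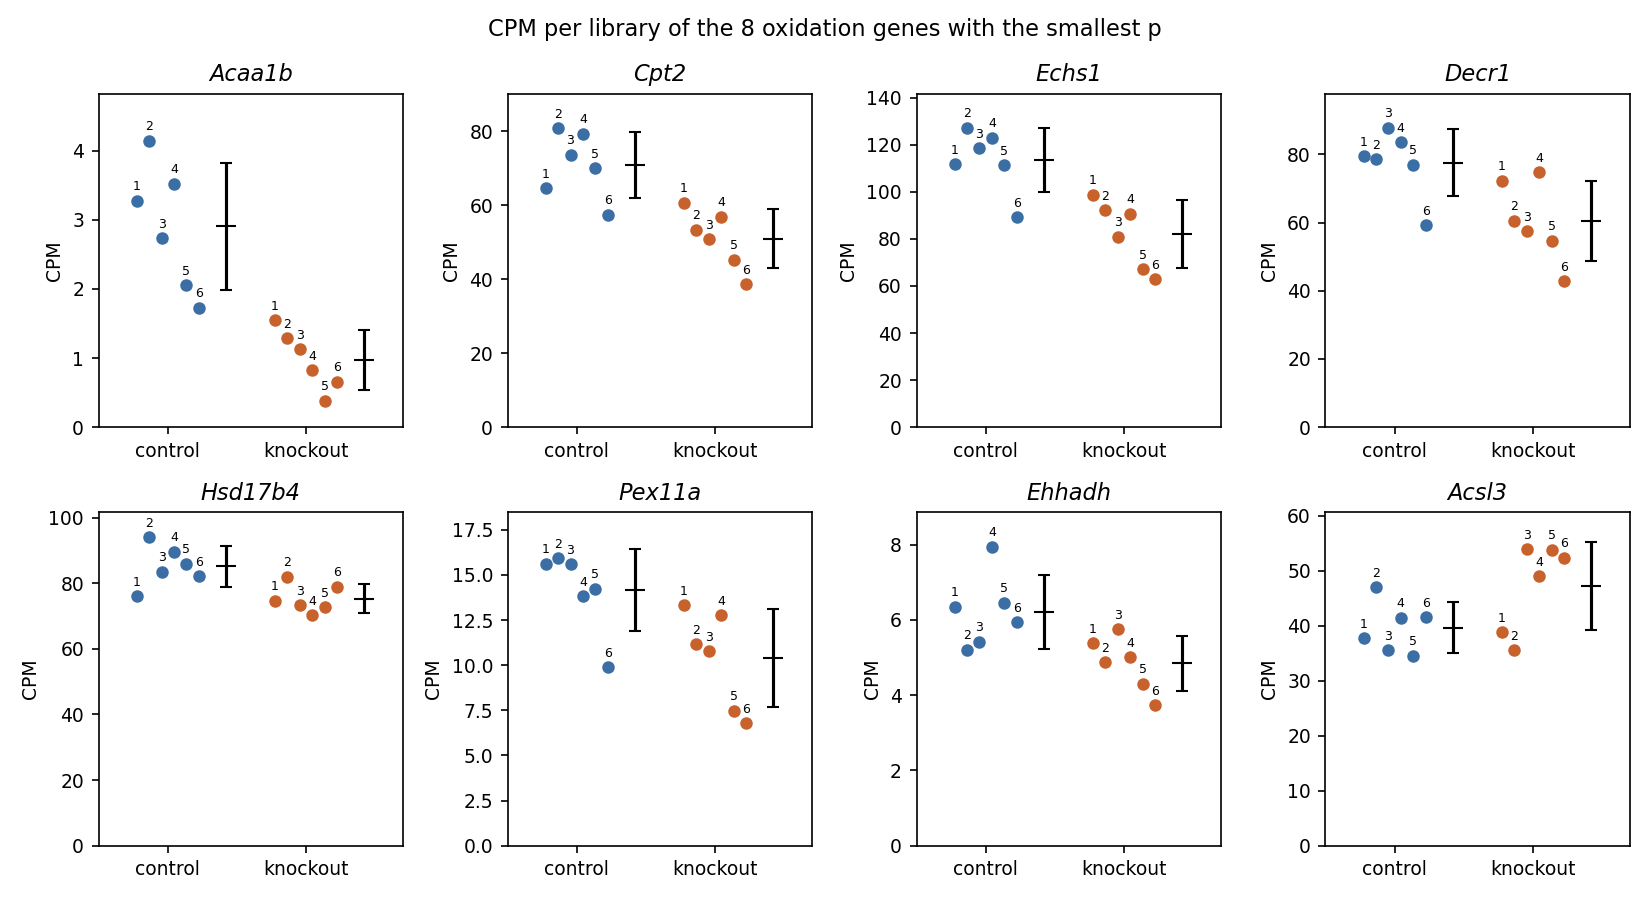
CPM (y axis, from 0) of the 8 members with the smallest p in each control (blue) and knockout (orange) library, numbered by replicate, with the mean and SD beside each group. Acaa1b is the 1 gene of the 8 whose groups do not overlap, and Acsl3 the 1 gene with a higher knockout mean.

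Mitochondrial members had 0 of 20 past the threshold in either direction, and a median log2 fold change of -0.16. At an unadjusted p under 0.05, 3 were lower and 0 higher (edgeR quasi-likelihood), against 5.68% and 3.79% of all tested genes. Of the 20, 17 had negative values. Over all 30 members, 23 of the 95% intervals included 0. Acsl3 is among them (-0.00056 to 0.51) although its unadjusted p was 0.0434, because the intervals use fewer degrees of freedom than the test.

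Members of the carnitine shuttle, which carries long-chain acyl groups into the matrix, had log2 fold changes from -0.48 to 0.07. Cpt2 (chromosome 4, 107903981 to 107923610, minus strand), which rebuilds acyl-CoA on the inner membrane, ranged from 57.5 to 80.9 CPM in controls (median 71.8) and from 38.7 to 60.6 CPM in knockouts (median 52.1). In 5 of 6 knockouts it lay below all controls, and only replicate 1 overlapped them. By edgeR's quasi-likelihood test the adjusted p was 0.0721 and the log2 fold change -0.48 (SE 0.11), and the knockout mean was 71.8% of the control mean. Slc25a20, the carrier that exchanges acylcarnitine for carnitine, and Crat, the acetyltransferase that buffers short acyl groups, had log2 fold changes of -0.06 (95% interval -0.32 to 0.19) and -0.08 (-0.41 to 0.25).

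Cpt1a and Cpt1b encode the first and rate-limiting step, Cpt1b being the form typical of muscle fibres. Cpt1a ranged from 68.5 to 97.6 CPM in controls (median 82.5) and from 71.7 to 115.8 CPM in knockouts (median 83.8), with a log2 fold change of 0.07 (95% interval -0.20 to 0.34). Cpt1b ranged from 1.12 to 4.32 CPM in controls (median 2.99) and from 1.14 to 3.84 CPM in knockouts (median 2.73), with a log2 fold change of -0.04 (95% interval -0.82 to 0.74). In FPKM the ratio of Cpt1b to Cpt1a was 0.0405 ± 0.0186 (SD, n = 6) in controls, and the knockouts had 0.0398 ± 0.0200. The level of Cpt1b is uncertain: 93.0% of the 50-base words of its transcript also belong to Gm44502, a gene model on the same strand, and Gm44502 had a count of 0 in all 12 libraries. The labels do not say how the counting treated reads shared by 2 gene models, so the low level of Cpt1b cannot be read as its true abundance.

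The 4 acyl-CoA dehydrogenases, which take the first step of each cycle on chains of different length, had log2 fold changes from -0.27 to 0.01. Acadm, for medium chains, ranged from 136 to 237 CPM in controls (median 216) and from 100.6 to 216 CPM in knockouts (median 166; edgeR quasi-likelihood, adjusted p = 0.749). Acadvl and Acads, for very long and short chains, had values of -0.14 and -0.16, and 42.9% of the exon bases of Acadvl lie opposite Dvl2, which stood at 19.1 ± 3.15 CPM in controls. Acadl, for long chains, ranged from 162 to 246 CPM in controls and from 143 to 271 CPM in knockouts, with a log2 fold change of 0.01 (95% interval -0.31 to 0.33).

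The later steps of the cycle were led by Echs1, the hydratase for short chains. Echs1 (chromosome 7, 140105710 to 140116476, minus strand) ranged from 89.3 to 127 CPM in controls (median 115) and from 62.9 to 98.8 CPM in knockouts (median 85.8). Knockout replicates 3, 5 and 6 lay below the lowest control, replicate 6, and the other 3 overlapped only with it. By edgeR's quasi-likelihood test the adjusted p was 0.0960 and the log2 fold change -0.47 (SE 0.12). Hadha and Hadhb, the subunits of the trifunctional protein for long chains, had log2 fold changes of -0.08 (95% interval -0.28 to 0.12) and -0.24 (-0.56 to 0.09). Hadhb shares 61.5% of its 50-base words with Gm13910, itself counted at 33.8 ± 3.78 CPM in controls (SD, n = 6), while knockouts had 30.7 ± 6.27 CPM. Hadh, the dehydrogenase for shorter chains, and Acaa2, the mitochondrial thiolase, had values of -0.25 (-0.55 to 0.04) and -0.11 (-0.45 to 0.23).

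Enzymes for unsaturated chains and the electron acceptors had negative values throughout. Decr1, the dienoyl-CoA reductase, ranged from 59.2 to 87.8 CPM in controls (median 79.0) and from 42.8 to 74.7 CPM in knockouts (median 59.0), with 3 of 6 knockouts below all controls (edgeR quasi-likelihood, adjusted p = 0.296, log2 fold change -0.36 with an SE of 0.13). The isomerases Eci1 and Eci2 had log2 fold changes of -0.17 and -0.07, and all 6 knockouts for Eci2, the form also found in peroxisomes, lay within the control range of 47.8 to 57.4 CPM. Etfa and Etfb, the subunits of the electron transfer flavoprotein, and Etfdh, which hands its electrons to ubiquinone, had values of -0.24, -0.37 and -0.18 (edgeR quasi-likelihood, adjusted p 0.556 to 0.673). Etfb shares 67.3% of its words with Gm45233 on the same strand, so its level carries the same doubt as that of Cpt1b.

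Acyl-CoA synthetases and thioesterases, which make and split acyl-CoA outside the cycle, included 4 of the 6 members with positive values. Acsl3, a synthetase of the endoplasmic reticulum and lipid droplets, ranged from 34.6 to 46.9 CPM in controls (median 39.6) and from 35.6 to 53.9 CPM in knockouts (median 50.7). Knockout replicates 3 to 6 lay above all controls, while replicates 1 and 2 lay within their range (edgeR quasi-likelihood, adjusted p = 0.496, log2 fold change 0.25 with an SE of 0.11). Acsl4, which prefers arachidonic acid, had the same 4 libraries above all controls, its range being 56.1 to 65.8 CPM in controls and 53.9 to 75.3 CPM in knockouts (adjusted p = 0.684, log2 fold change 0.14). Acsl5 had a log2 fold change of -0.12 and was lower in knockout replicates 3, 4 and 5 than in any control. The thioesterases Acot1 and Acot2 had values of 0.20 and 0.08, and since 95.6% of their aligned coding bases are identical, and 33.6% and 27.7% of their words occur in other genes, their reads may be split between copies.

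**Figure D2:**
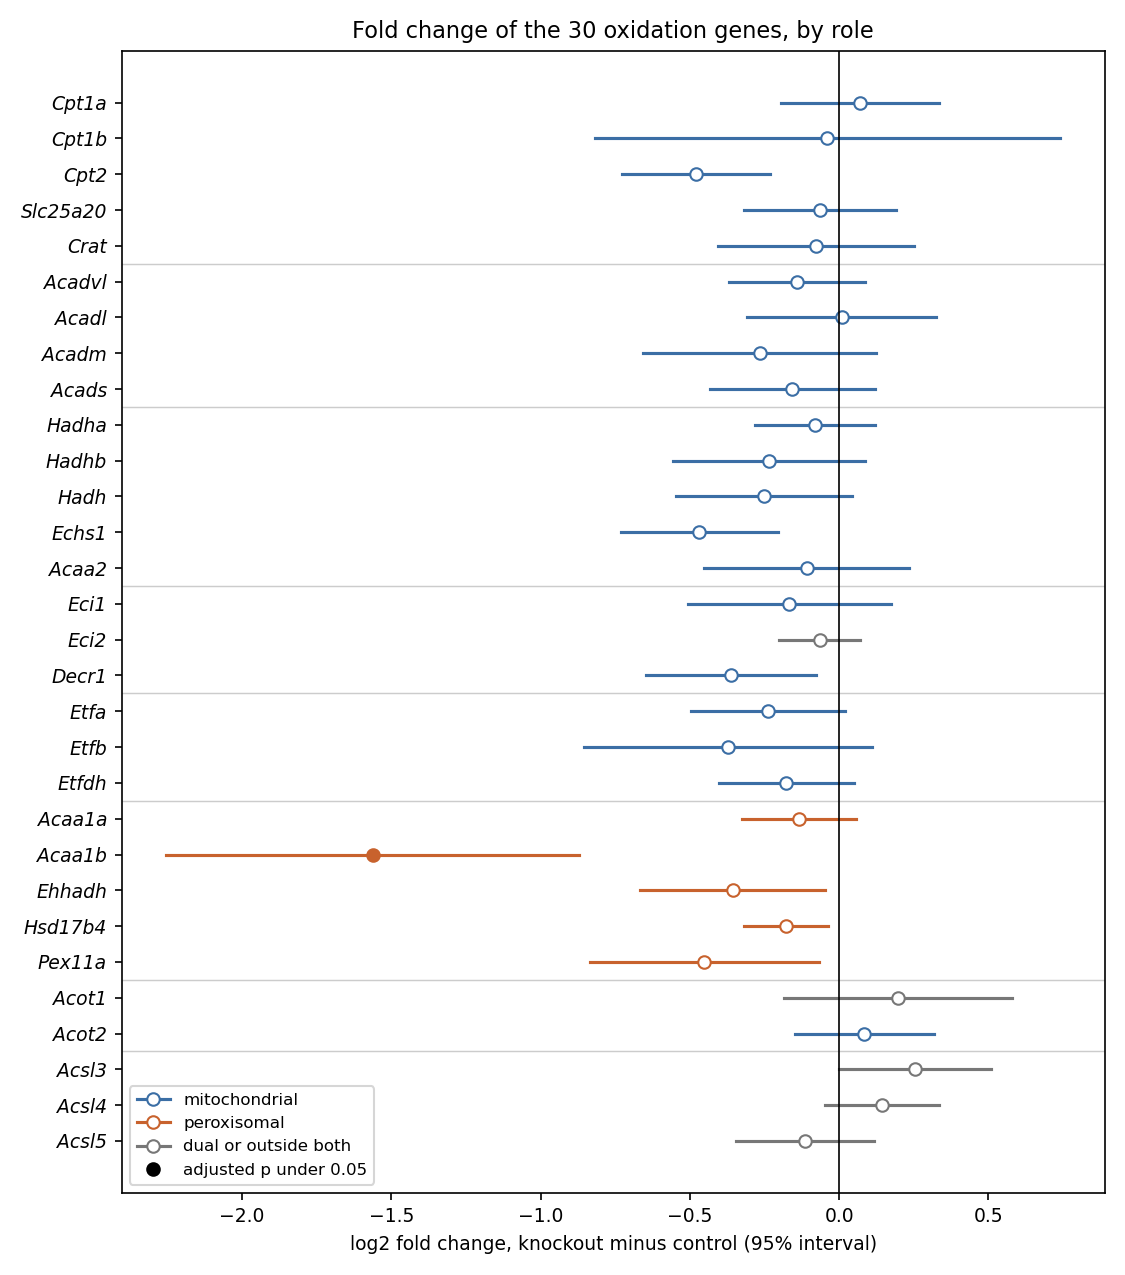
Log2 fold change (x axis) of each of the 30 members with its 95% interval, grouped by role from the carnitine shuttle at the top to the synthetases, and coloured by location. The filled point, Acaa1b at -1.56, is the 1 member past an adjusted p of 0.05, and its interval, -2.25 to -0.87, is the farthest from 0.

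Per length, the most abundant members in controls were Acaa2, Acadl and Etfa, with 114 ± 20.3, 106 ± 14.5 and 102 ± 12.1 FPKM (SD, n = 6), and they lay within each other's spread. Acadm followed at 51.8 ± 9.63 FPKM. The lowest were Acot1, Cpt1b, Acaa1b and Ehhadh, at 0.513 ± 0.0787, 0.770 ± 0.356, 1.46 ± 0.459 and 2.06 ± 0.323 FPKM. In the knockouts the same 4 genes were the lowest, Acaa1b being last at 0.492 ± 0.219 FPKM.

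The mean log2 CPM of the mitochondrial members was 6.28 ± 0.20 in controls and 6.10 ± 0.25 in knockouts (SD, n = 6 per group), a gap of -0.18 that is smaller than either SD. Within controls replicate 6 was the lowest library for 18 of the 20, and within knockouts replicate 6 was the lowest for 19. The mean log2 CPM of the 20 genes was 5.89 in control replicate 6, against 6.24 to 6.42 in the other controls, and 5.63 in knockout replicate 6, against 6.11 to 6.36 in the other knockouts. A list of 20 other mitochondrial genes, mainly of the respiratory chain and citrate cycle, showed the same 2 libraries lowest, at 7.79 and 7.63, with group means of 8.30 ± 0.29 and 8.24 ± 0.33 (SD, n = 6 each), and 0 of its 20 genes passed the test (edgeR quasi-likelihood; 0 at an unadjusted p under 0.05). Its median log2 fold change was -0.04. Mature myofibre markers were lowest in knockout replicate 6 (mean log2 CPM 7.88) and low in control replicates 2 and 6 (8.09 and 8.40), against 9.01 to 9.58 in the other 9 libraries. Their part in the mitochondrial values was not tested. Without knockout replicate 6 the median log2 fold change of the 20 mitochondrial members was -0.08, and without control replicate 6 it was -0.23. Without both it was -0.14.

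**Figure D3:**
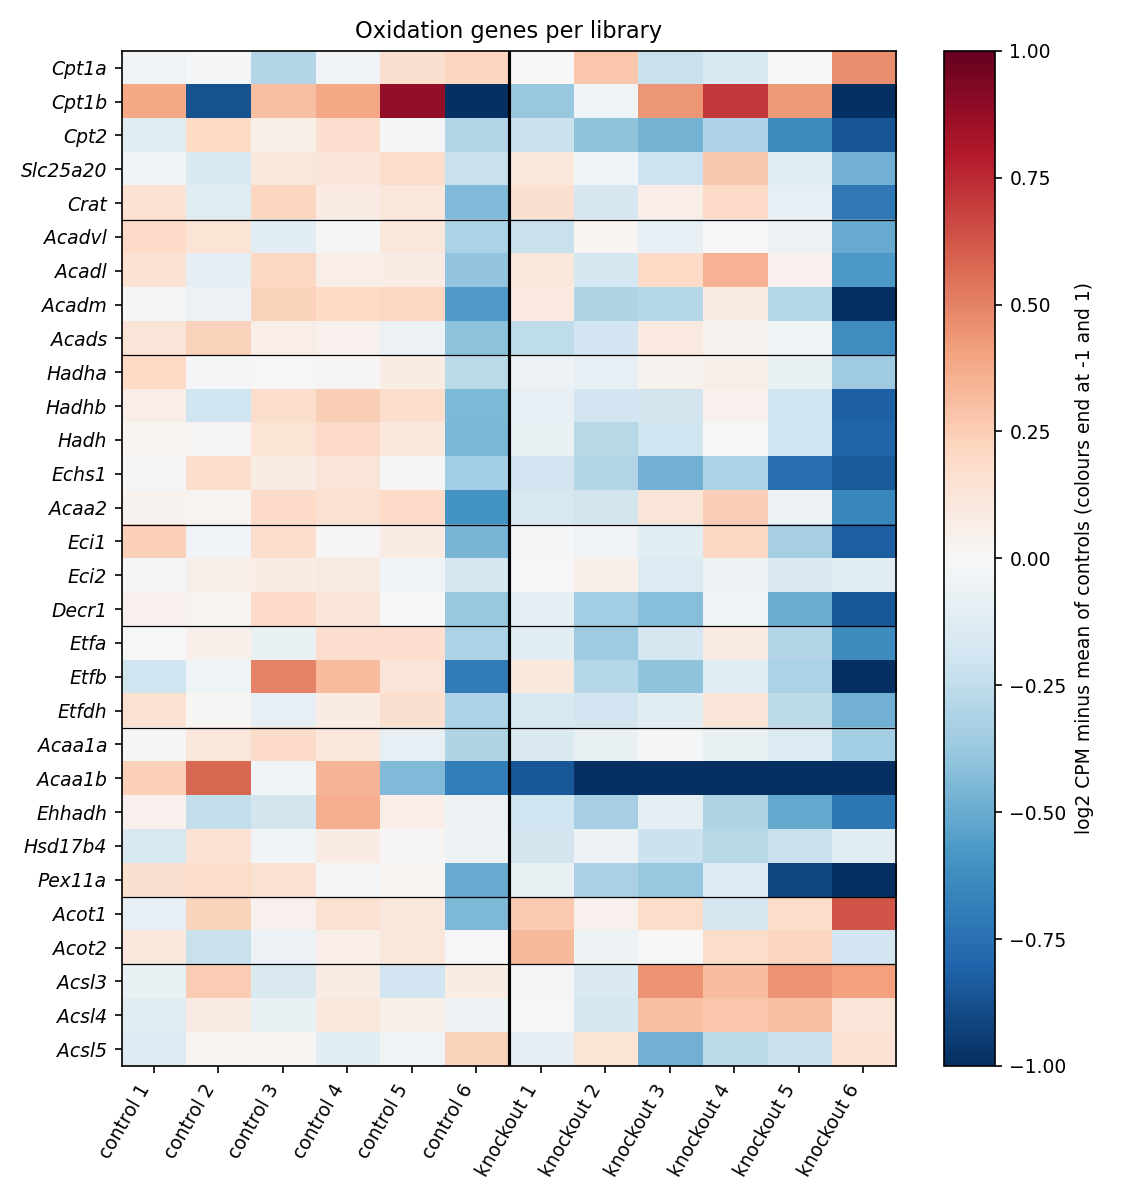
Log2 CPM of each member in each library, as the difference from the mean of the 6 controls (colour, from -1 in blue to 1 in red), in the order of roles used for the fold changes. The columns of control replicate 6 and knockout replicate 6 are blue for most mitochondrial members, Cpt1a being redder there, while Acaa1b is blue in all 6 knockouts.

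Of the peroxisomal members, replicate 6 was the lowest control for 3 of the 5 and the lowest knockout for 3 of the 5. Their mean was lowest in control replicate 6 among the controls (3.95) and in knockout replicates 5 and 6 among the knockouts (3.39 and 3.44). Their mean log2 CPM was 3.95 to 4.44 in controls and 3.39 to 3.98 in knockouts, so that only knockout replicate 1 reached into the control range. The mean of the 20 mitochondrial members minus that of the 5 peroxisomal members was 2.02 ± 0.14 for controls and 2.37 ± 0.22 for knockouts (SD, n = 6 each). Knockout replicates 2 and 6, at 2.22 and 2.19, lay below the highest control, replicate 5 at 2.24, and the other 4 knockouts lay above it. Because the members were chosen with results of these data known, this difference is a description without a test. Acaa1b contributes much of it: without that gene the peroxisomal mean was 4.95 ± 0.12 for controls and 4.67 ± 0.17 for knockouts (SD, n = 6 each), which differ by -0.28, beside -0.18 for the mitochondrial members. The peroxisomal median was below the mitochondrial one under every alternative and with each library left out. These fits all reuse the same members. Lists of other pathway genes, given below, did not repeat that order. Their medians were -0.10 for both peroxisomal lists and -0.12 for the mostly mitochondrial one.

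Markers of adipocytes moved with the groups in the same libraries. Of 20 adipocyte genes 6 fell and 0 rose (19 lower at an unadjusted p under 0.05), and the median log2 fold change was -1.56, with all 20 below 0. Their summed level ranged from 6460 to 10293 CPM in controls and from 1445 to 5607 CPM in knockouts. Their mean log2 CPM was lowest in knockout replicates 5 and 6 (3.29 and 4.10), and 5.12 to 6.01 in the other 4 knockouts. Of the 8 members with the smallest p, Acaa1b, Cpt2, Echs1, Decr1, Pex11a and Ehhadh had the same lowest knockouts, while Hsd17b4 and Acsl3 did not. The pattern was not particular to these genes. Eci1, Etfdh and Hadhb had it too, without an unadjusted p under 0.05 (edgeR quasi-likelihood). Knockout replicate 6 was the lowest knockout for 19 of the 20 mitochondrial members. The part of adipocytes in the values of the members was not tested. In whole muscle fewer cells of a type and less RNA per cell cannot be told apart. Of 8 markers of brown and beige fat, 5 were tested and 0 passed (0 at an unadjusted p under 0.05, edgeR quasi-likelihood), and Ucp1 was at most 0.829 CPM in any library. Of 10 FAP markers 2 fell and 0 rose (6 lower at an unadjusted p under 0.05, median -0.46), while 0 of 12 macrophage, 0 of 8 endothelial, 0 of 19 mature myofibre and 0 of 9 regenerating myofibre markers passed, with medians of -0.05, -0.07, 0.12 and 0.34. Of these last 4 lists, 4 regenerating myofibre genes were higher at an unadjusted p under 0.05 and the other 3 lists had 0 such genes. Over all tested genes 3.79% were higher and 5.68% lower at that level. The summed FAP level was 9419 to 12840 CPM in controls and 7247 to 12109 CPM in knockouts.

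**Figure D4:**
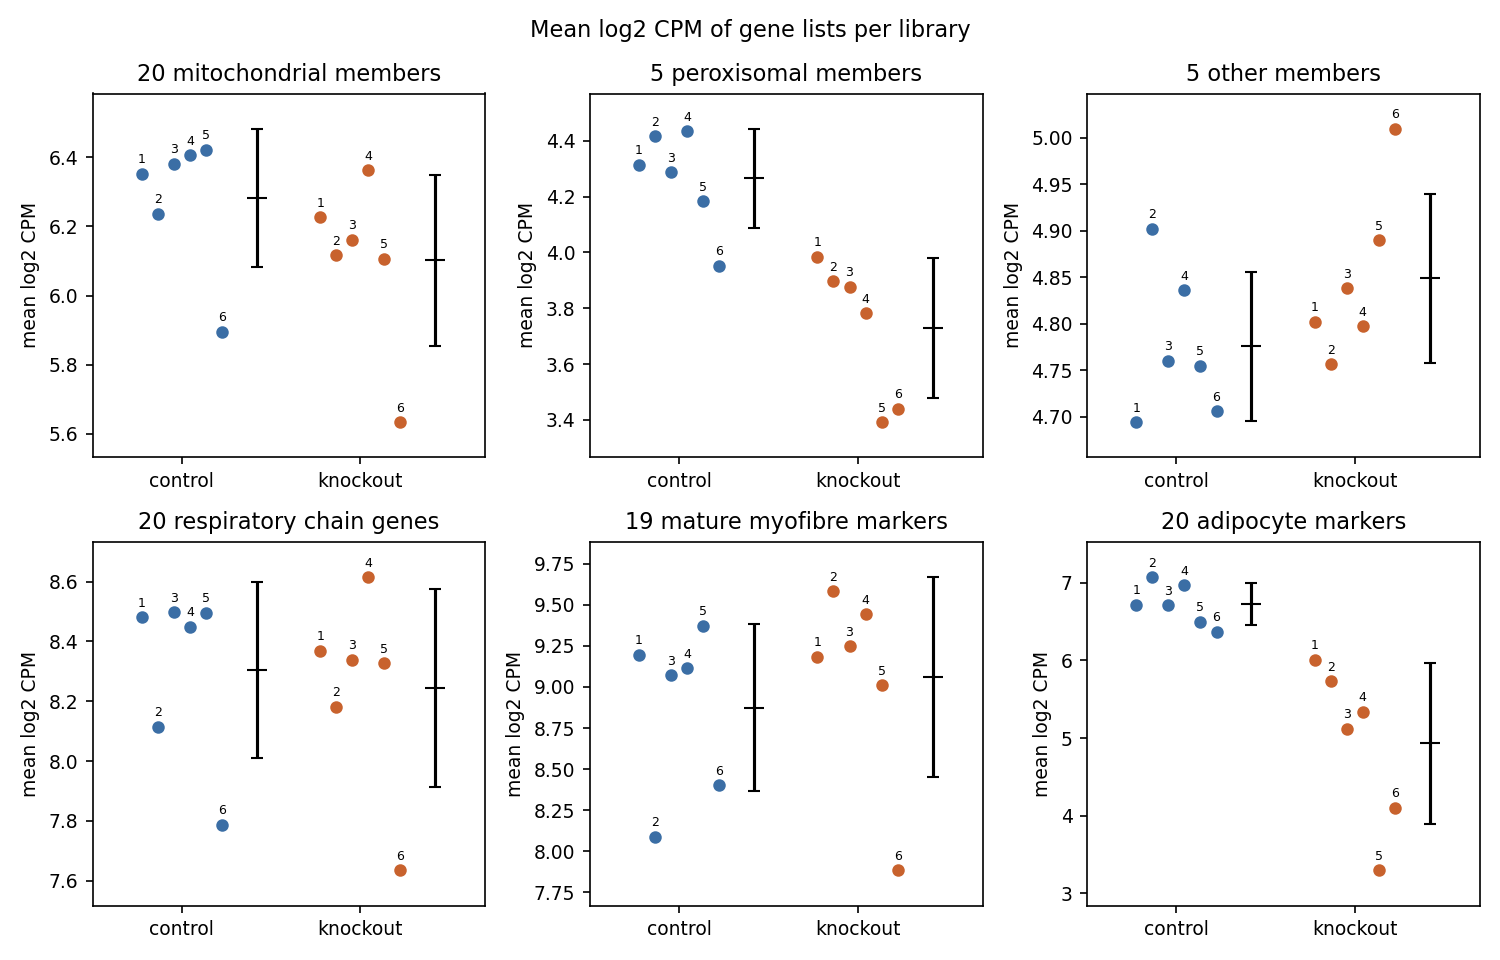
Mean log2 CPM (y axis, not from 0 and different in each panel) of the mitochondrial, peroxisomal and other members and of 3 lists set beside them, per library with the replicate number, and the mean and SD of each group. Replicate 6 of both groups is lowest for the mitochondrial members and the respiratory chain genes, and the adipocyte markers are lowest in knockout replicates 5 and 6.

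Other genes of the pathway, 92 in 5 lists, were examined beside the members, of which 84 were tested. Of these 6 fell and 0 rose, against 0.75% and 0.0488% of all tested genes. At an unadjusted p under 0.05, 18 were lower and 0 higher (edgeR quasi-likelihood), against 5.68% and 3.79%. The median log2 fold change was -0.10. Among them, 4 of the 6 that fell act in or at peroxisomes. The other 2 were Acsl1 and Pparg, the gene deleted by design. In the list of peroxisome membrane, import and transport genes, which also holds the catalase gene Cat, 3 of 23 fell, Cat among them. In that of peroxisomal oxidation 1 of 17 fell, and the medians were -0.10 for both. In a list of further, mostly mitochondrial, acyl-CoA and carnitine genes 0 of 20 passed (2 lower at an unadjusted p under 0.05), with a median of -0.12. Not all genes of that list belong to beta oxidation. Of 6 other synthetases 1 fell, and of 18 regulators and fasting targets 1 did, Pparg, with medians of -0.14 and -0.03.

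Cat, the catalase that breaks down the hydrogen peroxide of peroxisomal oxidation, ranged from 160.5 to 217 CPM in controls (median 189) and from 82.4 to 148 CPM in knockouts (median 103), with no overlap (edgeR quasi-likelihood, adjusted p = 0.0199, log2 fold change -0.78 with an SE of 0.13). Pxmp4, a peroxisomal membrane protein, ranged from 25.2 to 33.4 CPM in controls (median 29.05) and from 18.0 to 22.4 CPM in knockouts (median 21.02), also with no overlap (log2 fold change -0.50, SE 0.08, adjusted p = 0.0231). Scp2, whose long form is a peroxisomal thiolase for branched chains, ranged from 240 to 339 CPM in controls (median 267.5) and from 154 to 219 CPM in knockouts (median 184), again apart (log2 fold change -0.58, SE 0.12, adjusted p = 0.0332). Scp2 shares 41.4% of its words with Scp2-ps2, which had a log2 fold change of -0.40 (adjusted p = 0.0823). Pex16, which helps to place proteins in the peroxisomal membrane, fell by 0.54 on the log2 scale with an adjusted p of 0.0495, and 5 of 6 knockouts lay below all controls.

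Acsl1, the main acyl-CoA synthetase of fat and muscle, ranged from 389 to 568 CPM in controls (median 435) and from 132 to 307 CPM in knockouts (median 214), with no overlap and knockout replicates 5 and 6 lowest. Its log2 fold change was -1.10 (SE 0.21, adjusted p = 0.0291, edgeR quasi-likelihood), against 0.25, 0.14 and -0.12 for the 3 synthetases among the members. Abcd2, a peroxisomal importer of very-long-chain acyl groups, and Pex5, the import receptor of peroxisomal enzymes, had no overlap either but missed the threshold, with log2 fold changes of -0.71 and -0.26 and adjusted p of 0.0542 and 0.0738. With each library left out in turn, Cat kept its call in 8 of 12 fits, Pxmp4 in 7, Acsl1 in 6, Scp2 in 4 and Pex16 in 3. None of these 5 genes kept it when control replicate 2 or 4, or either of knockout replicates 3 and 4, was left out. Without knockout replicate 6 only Cat kept it, without control replicate 1 only Cat and Pxmp4, and without control replicate 3 or knockout replicate 5 Cat, Pxmp4 and Acsl1 did. Without control replicate 5 Pex16 alone of the 5 lost it. Without both libraries numbered 6 Pxmp4 and Pex16 kept their calls, while Cat, Acsl1 and Scp2 had adjusted p of 0.0742, 0.0800 and 0.0845.

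**Figure D5:**
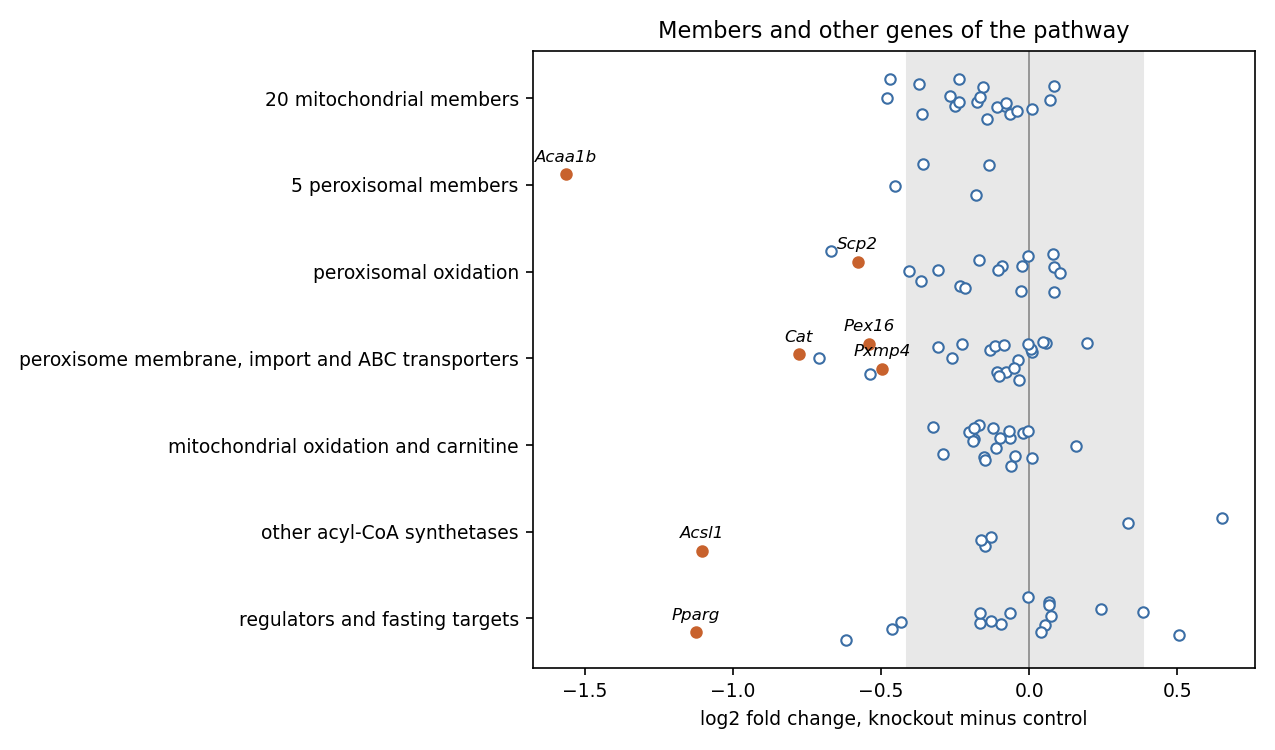
Log2 fold change (x axis) of the mitochondrial and peroxisomal members and of the other tested genes of the pathway by list, each point 1 gene, filled and named where it passed an adjusted p of 0.05. The grey band covers the middle 90% of all tested genes, from -0.41 to 0.39, and the vertical line is their median; all 7 named genes lie to the left of the band.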

How the data were processed

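Whole-muscle RNA of 12 samples (6 control, 6 knockout) was sequenced after poly-T selection, per the labels' protocols. The authors deposited whole-number read counts per gene, not normalized, and a table of FPKM values; per the submitters' processing notes the tools were fastp, HISAT2 2.0.5 and featureCounts on GRCm38 (mm10), while the strand setting, the treatment of shared reads and the FPKM denominator were not stated there. The counts went into edgeR 4.0.16 (R 4.3.3) with filterByExpr (minimum count 10, minimum total 15), TMM scaling, robust quasi-likelihood F tests and Benjamini-Hochberg adjustment over all 16393 tested genes at 0.05. Standard errors come from the fold change and F, and 95% intervals use 10 residual degrees of freedom. CPM values use TMM library sizes and log2 CPM a prior count of 2. On simulated counts of 16393 genes for this comparison, 55 of 100 genes changed 1.5-fold and 90 of 100 changed 2-fold were recovered, with 6 of 151 calls false. Only genes averaging over 100 reads per library were altered in that simulation. Genes were drawn independently, so shifts shared by many genes of a library were not modelled. Changes under 1.5-fold, as those of all members except Acaa1b were, were not simulated. Recovery at the lower counts of Acaa1b, Cpt1b and Acot1 was not tested.

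Members, lists and alternatives were chosen with earlier results of these data known. All 30 members and the 8 other pathway genes with the smallest p, Pparg among them, were named. Alternatives used DESeq2 1.42.0, limma 3.58.1, sva 3.50.0, other scalings and filters, the FPKM values with a pseudocount of 1, covariates, a block, and each library left out. No library was treated as a duplicate: chi-square per degree of freedom ran from 13.1 to 161 in the 30 within-group pairs. Shared sequence was measured in 50-base words of GENCODE M21 transcripts. Promoters are from RefSeq.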

Additional observations from a re-analysis of the deposited data

Results flagged for a closer look

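Within groups of 6 libraries, 5 values lay far below the rest by Dixon's ratio of the gap to the range, out of 60 member and group combinations checked; chance gives such a value in about 1 of 20 groups. In control replicate 6, Hadh stood at 104 CPM (next lowest 145), Acaa2 at 114 CPM (next lowest 176) and Pex11a at 9.90 CPM (next lowest 13.8). In knockout replicate 6, Hadha stood at 192 CPM (next lowest 232) and Hadhb at 86.1 CPM (next lowest 132). All 5 come from the 2 libraries in which the respiratory chain list was lowest too.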

How the results depend on the processing

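With the counts of members, of other pathway genes and of all genes past the threshold at 1, 6 and 131, DESeq2 gave 3 members and 399 genes, limma-voom with quality weights 3, 10 and 389, and 1 surrogate variable 5, 10 and 237. Without a low-count filter 2 members passed, and with the stricter one 0, since Acaa1b was no longer tested. Leaving out 1 library gave 0 to 2 members, 0 to 7 other pathway genes and 6 to 214 genes. Without both libraries numbered 6, an alternative chosen after the data were seen, 0 members, 2 other pathway genes and 28 genes passed. Cpt2 passed in 5 of its 11 alternatives besides single libraries, Echs1 in 4, Decr1 in 2 and Hadhb in 1, and Cpt2 also passed without control replicate 6 or knockout replicate 1; the cause was not tested. The replicate block gave 4 members (Acaa1b, Cpt2, Echs1 and Decr1), 8 other pathway genes and 236 genes. Whether the numbers pair the samples could not be told: correlations of deviations ran from -0.13 to 0.46 over the 6 pairs. Of the controls, 2 of 6 correlated best with the knockout of their own number, and 1 of 6 knockouts with its own control. Near 0, Cpt1b turned to 0.0043 with the block and 0.23 with the mitochondrial share as covariate, and Acadl to -0.0085 with the block and -0.018 with the surrogate variable. With 1 library left out, Cpt1b ran from -0.20 to 0.17, Acadl from -0.061 to 0.10, Cpt1a from -0.021 to 0.12, Crat from -0.15 to 0.024 and Slc25a20 from -0.13 to 0.0080. Without the low-count filter Acsl1 and Pparg missed the threshold (adjusted p = 0.0723 and 0.0979, edgeR), and Pex16 missed it in 4 alternatives besides single libraries. Low counts limit Acaa1b, Cpt1b and Acot1.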
